A study of Mus musculus with 2 samples.

Results

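Alpha1 tanycytes are the cells that the authors' annotation names as such among GFP-sorted cells of the mouse mediobasal hypothalamus. They were taken by that name in both libraries, which gave 1142 of 22285 cells. The Nfia/b/x-deficient library held 669 alpha1 cells of 13337, and the control library held 473 of 8948. Chromatin accessibility was measured at postnatal day 8 by single-cell ATAC-seq, in which the Tn5 transposase cuts open chromatin in single nuclei.

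The Nfia/b/x-deficient library came from mice with floxed Nfia, Nfib and Nfix alleles (Nfialox/lox, Nfiblox/lox and Nfixlox/lox), Rax-CreER and the CAG-lsl-Sun1-GFP reporter. The control library came from mice with Rax-CreER and CAG-lsl-Sun1-GFP without the floxed alleles. Both genotypes therefore carried the inducible Cre and the nuclear GFP reporter, and both were sorted for GFP. Rax-CreER acts in cells that express Rax, and the GFP stays on in what those cells become, so the sort also holds neurons and glia. Each genotype had 1 library, and the number of mice behind it was not stated in the labels. With no replicate there was no test between genotypes, and every interval below is an exact 95% interval for counting error only.

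Tanycytes are radial glia-like cells whose bodies line the third ventricle. Alpha tanycytes lie along the side walls and send processes into the hypothalamic nuclei, and beta tanycytes lie along the floor near the median eminence. Alpha1 cells are the most dorsal of them and border on the ciliated ependymal cells. NFIA, NFIB and NFIX are transcription factors that promote glial differentiation in the developing brain, and their loss in tanycytes was studied here for its effect on the formation of neurons.

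The deposited matrix says only whether a region was open in a cell, for 107377 regions known by their number. The files pair no region with a gene or a position, so the marker genes Rax, Vcan, Penk and Cd59a could not be read, the deletion of the floxed genes could not be checked and no sequence is shown. A detection is 1 region found in 1 cell. Alpha1 cells held 2939522 detections in the deficient and 2308534 in the control library, with a median per cell of 3978 (quartiles 2882 and 5401) in deficient and 4265 (3002 and 6200) in control. Levels are therefore given per 1000 or per 1000000 detections of the same cells. The libraries shared 204 cell barcodes. Of these, 18 belonged to deficient and 8 to control alpha1 cells, and none (0) was an alpha1 cell in both. No shared pair with an alpha1 cell had more than 30.9% of its regions in common (median 15.6%).

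By the authors' annotation, alpha1 cells were 6.65% (6.17 to 7.16) of 10055 deficient tanycytes and 6.48% (5.92 to 7.07) of 7304 control tanycytes, a ratio of 1.03 (0.912 to 1.16). The proliferating class counts in these totals, with 1033 deficient and 63 control cells. Without it the alpha1 share was 7.42% in deficient and 6.53% in control, a ratio of 1.14 (1.01 to 1.28). Within the alpha cells alone, alpha1 cells were 12.0% (11.2 to 12.9) of deficient and 9.90% (9.07 to 10.8) of control cells, a ratio of 1.21 (1.08 to 1.37). The direction thus depended on the denominator, since the share of all cells was 5.02% in deficient and 5.29% in control. With each cell given the type of its nearest profile, as described next, the alpha1 share of tanycytes was 15.2% in deficient and 13.8% in control, a ratio of 1.10 (1.01 to 1.19). Most of the cells counted as alpha1 in this way had another label in the annotation.

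The label was checked without genes by giving each cell the type whose profile was nearest. Profiles came from the 50% of the cells of the same library that did not hold the cell and were reduced to 150000 detections each. The nearest profile was alpha1 for 82.7% (79.6 to 85.5) of deficient alpha1 cells and 90.1% (87.0 to 92.6) of control alpha1 cells. The next most frequent was the proliferating profile, nearest for 6.58% in deficient and 6.77% in control. In each of the 4 other ways of building profiles that were run, 0 of 473 control alpha1 cells were nearest to it. The alpha2 profile was nearest for 4.93% (3.42 to 6.86) of deficient and 1.06% (0.344 to 2.45) of control alpha1 cells. In the opposite direction, 12.0% of deficient and 9.92% of control alpha2 cells were nearest to alpha1. For beta1 cells this was 9.93% in deficient and 7.96% in control. Most cells nearest to alpha1 thus carried another label. Of 1468 such deficient cells, 553 were labelled alpha1, 586 alpha2 and 243 beta1. Of 996 such control cells, 426 were labelled alpha1, 427 alpha2 and 124 beta1. These shares moved with how the profiles were built. With profiles of up to 400000 detections the alpha1 shares were 86.7% in deficient and 97.7% in control. With profiles from both libraries they were 71.7% in deficient and 95.8% in control, and 21.4% of the deficient alpha1 cells then went to the proliferating profile, whose cells are mostly deficient. With profiles at full depth, shrunk towards the mean of the library, the alpha1 shares were 44.7% in deficient and 55.2% in control, and alpha2 was nearest for 44.5% of deficient and 41.4% of control alpha1 cells.

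Regions that set alpha1 cells apart were then followed between genotypes. For each library, the 500 regions with the highest ratio of alpha1 to all other cells were chosen in a random 50% of its cells and measured in the cells that had no part in the choice. Of the regions chosen in deficient cells, 99.0% were higher in alpha1 than in the other control cells, and 84.6% were highest in alpha1 among the 9 types of the control library. Of those chosen in control cells, 99.8% were higher in alpha1 than in the other deficient cells, and 76.8% were highest in alpha1 there. Over all regions, 43.2% were higher in alpha1 cells of the deficient library and 40.9% in those of the control library. The share highest in alpha1 was not taken over all regions. Both choices shared 180 regions. Cells were clustered before these regions were chosen, so this describes how far the label carries from library to library and tests nothing.

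Alpha1 regions were less open in deficient alpha1 cells under each choice. The regions chosen in deficient cells held 9.24 (9.09 to 9.40) of 1000 detections in deficient and 10.1 (9.97 to 10.2) in control alpha1 cells, a log2 ratio of -0.13 (-0.16 to -0.10). The regions chosen in control cells held 8.62 (8.52 to 8.73) in deficient and 11.24 (11.04 to 11.43) in control alpha1 cells, a log2 ratio of -0.38 (-0.41 to -0.35). A choice tends to favour the library it was made in, and the size of the difference moved with it. The 180 regions chosen in both libraries passed the same rule in each, though the mix of other cells and the alpha1 detections differed between libraries. They held 4.02 (3.91 to 4.12) in deficient and 4.57 (4.45 to 4.70) in control alpha1 cells, a log2 ratio of -0.19 (-0.24 to -0.13).

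**Figure D1:**
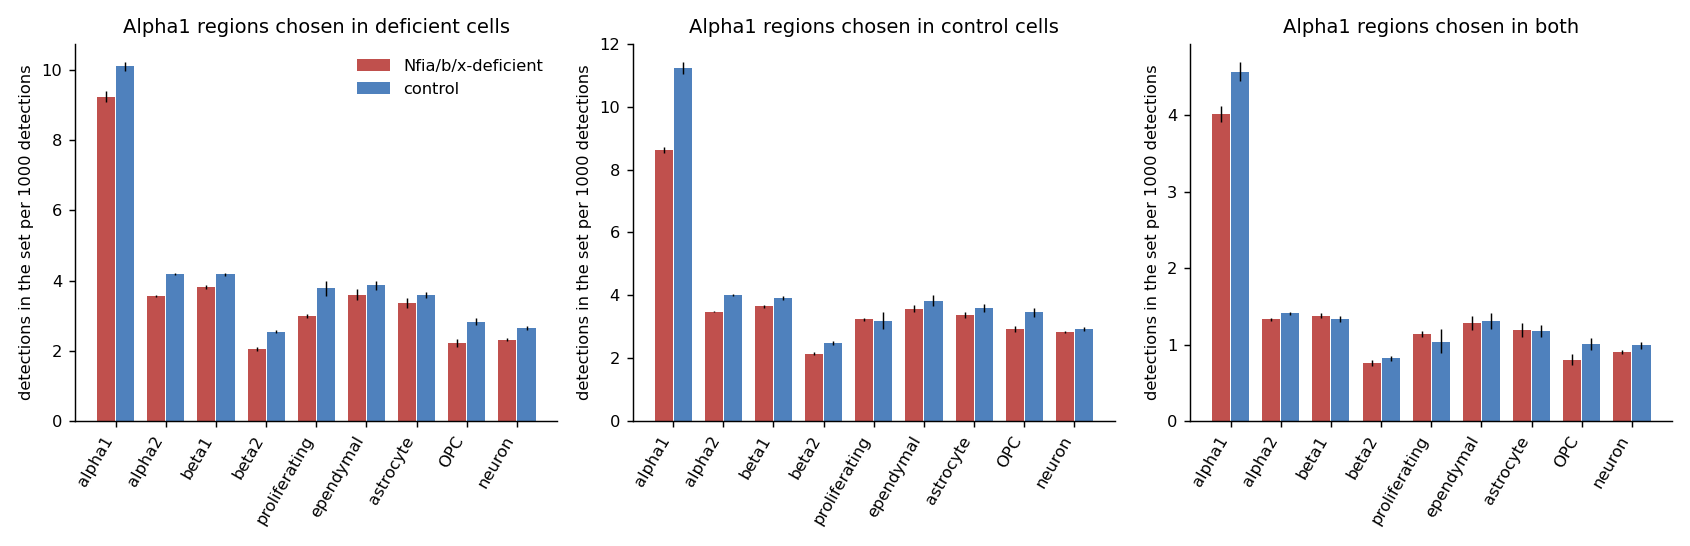
Detections in the alpha1 region sets per 1000 detections of each type (bars, with exact Poisson 95% intervals), in the Nfia/b/x-deficient and the control library, for 500 regions chosen in deficient cells, 500 chosen in control cells and the 180 chosen in both. The level stood highest in alpha1 cells in every panel, and was 4.02 in deficient and 4.57 in control alpha1 cells for the regions chosen in both.

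The 180 regions stood far above the level of other types in either genotype. Alpha2 cells held 1.33 of 1000 detections there in deficient and 1.41 in control, and beta1 cells 1.38 in deficient and 1.33 in control. Ependymal cells, the neighbours on the ventricle wall, held 1.28 in deficient and 1.31 in control. Beta2 cells of the ventral floor were lowest, at 0.756 in deficient and 0.819 in control. The log2 ratio between genotypes was -0.08 (-0.11 to -0.05) in alpha2 and 0.05 (-0.004 to 0.10) in beta1 cells, against -0.19 in alpha1 cells. Beta2 cells had -0.11 (-0.21 to -0.02) and neurons -0.14 (-0.22 to -0.06). OPCs, the precursors of oligodendrocytes, had a ratio of -0.33 (-0.51 to -0.15) at a low level, so the difference was not seen in alpha1 cells alone. The intervals of proliferating, ependymal and astrocyte cells included 0.

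The difference was spread over many alpha1 regions. Among the 180 regions, 118 had at least 50 detections in the cells used for measuring, and 76 of these (64.4%) were lower in deficient alpha1 cells, with a median log2 ratio of -0.16 (5th to 95th percentile -1.11 to 0.60). Over all 15533 regions that passed that minimum, 51.7% were lower and the median was -0.01. Of the 118 regions, 7 were lower by 2-fold or more and none (0) was higher by as much. Of all 15533 regions, 1.88% were lower by 2-fold in these cells. In these cells the share higher by 2-fold was not taken over all regions. Over 29290 regions with 50 or more detections in all alpha1 cells it was 1.39%, so 0 of 118 is not read as a result.

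The fold of alpha1 over alpha2 cells, which is the contrast between the alpha subtypes, depended on the library that chose the regions. For regions chosen in deficient cells it was 2.59 (2.54 to 2.64) in deficient and 2.41 (2.37 to 2.44) in control. For regions chosen in control cells it was 2.48 (2.45 to 2.52) in deficient and 2.80 (2.74 to 2.85) in control. For the 180 regions chosen in both it was 3.01 (2.93 to 3.11) in deficient and 3.24 (3.15 to 3.34) in control. The deficient fold was thus higher for the deficient choice and lower for the other choices.

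Single cells were compared after each was reduced to 2000 detections at random, which left out 52 deficient and 34 control alpha1 cells. Of the regions chosen in control cells, a deficient alpha1 cell had 17 open (median of 617 cells, quartiles 13 and 22) and a control alpha1 cell 23 (median of 220 unused cells, quartiles 18 and 30). Alpha2 cells had a median of 6 in deficient and 7 in control. Of the regions chosen in deficient cells, the median was 18.5 in 308 unused deficient and 21 in 439 control alpha1 cells, with 6 in deficient and 8 in control alpha2 cells. The distribution of counts overlapped between genotypes, with a lowest and highest of 3 and 44 in deficient and 9 and 48 in control cells for the regions chosen in control cells. By the regions chosen in control cells, alpha1 cells above the 95th percentile of the alpha2 cells of their own library were 62.7% (58.8 to 66.6) in deficient and 84.5% (79.1 to 89.1) in control. For the regions chosen in deficient cells this share was not taken. There the 95th percentile of alpha2 cells was 14 in deficient and 15 in control, and the lower quartile of alpha1 cells was 14 in deficient and 16 in control. Cells with more detections before the reduction had fewer alpha1 regions, with medians of 16 above and 18 below the median depth in deficient and 20 above and 26 below it in control.

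**Figure D2:**
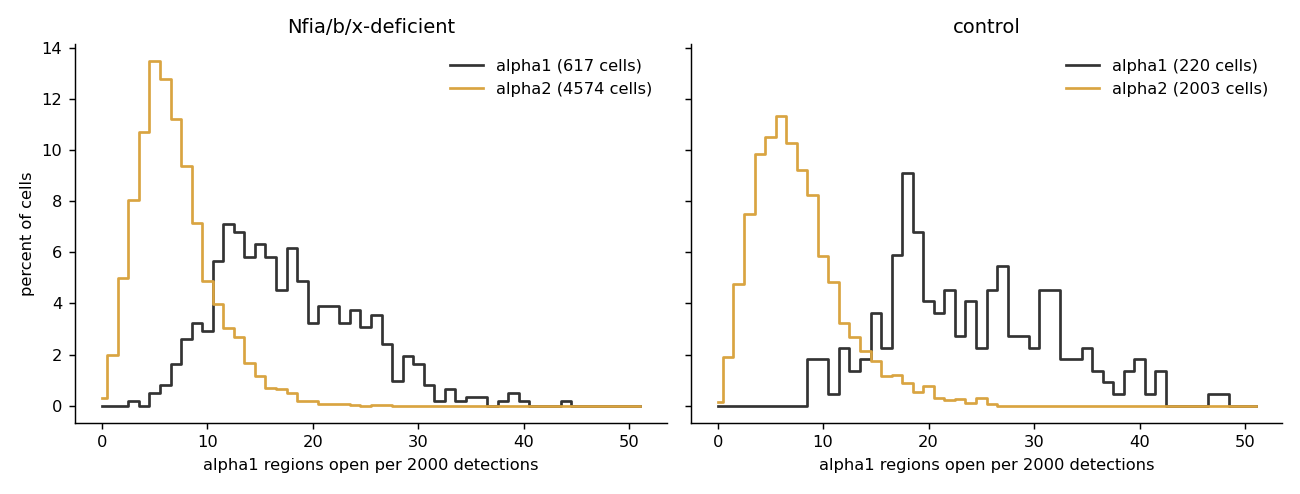
Percent of alpha1 and of alpha2 cells (vertical axis) by the number of the 500 control-chosen alpha1 regions open in a cell reduced to 2000 detections (horizontal axis), for the Nfia/b/x-deficient library on the left and the control library on the right. For these control-chosen regions the medians of alpha1 and alpha2 cells are 17 and 6 in the deficient library and 23 and 7 in the control library. For the deficient-chosen regions, not drawn, they are 18.5 and 6 in the deficient and 21 and 8 in the control library.

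The regions of the other types were measured in alpha1 cells in the same way. Regions of neurons were more open in deficient alpha1 cells under every choice, at a low level. Those chosen in deficient cells held 0.811 of 1000 detections in deficient and 0.548 in control alpha1 cells, a log2 ratio of 0.57 (0.45 to 0.68). Those chosen in control cells held 0.599 in deficient and 0.453 in control alpha1 cells, a log2 ratio of 0.40 (0.26 to 0.55). The 215 regions chosen in both libraries held 0.282 in deficient and 0.179 in control alpha1 cells, a log2 ratio of 0.65 (0.41 to 0.90).

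Neurons themselves held 2.71 of 1000 detections in those 215 regions in deficient and 4.02 in control, so the level of alpha1 cells was a small part of theirs. The signal was thin in each cell. After reduction to 2000 detections, 59.8% of deficient and 53.6% of control alpha1 cells had at least 1 of the control-chosen neuron regions, and 2.11% (1.13 to 3.58) of deficient and 0.455% (0.0115 to 2.51) of control alpha1 cells had at least 5. Neurons were 2520 of 13337 cells in the deficient and 882 of 8948 in the control library. How far their number bears on the values of alpha1 cells was not tested. For the deficient choice the same regions were also higher in every other deficient type that is not a neuron, with log2 ratios of 0.44 (OPC and ependymal) to 0.70 (beta2 and proliferating). For the control choice they were higher in alpha2, beta1, beta2, astrocyte and OPC cells, with log2 ratios of 0.28 to 0.65, and the intervals of ependymal (-0.06 to 0.31) and proliferating cells (-0.03 to 0.47) included 0.

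Regions of proliferating tanycytes were taken from the deficient choice only, since 3 regions passed the choice in the 63 control cells. They held 3.81 (3.71 to 3.91) of 1000 detections in deficient and 2.47 (2.40 to 2.53) in control alpha1 cells, a log2 ratio of 0.63 (0.57 to 0.68). Alpha2 cells had 0.63, beta1 cells 0.52 and beta2 cells 0.54. Astrocytes had 0.17, ependymal cells 0.24 and OPCs 0.32. Neurons had 0.75 (0.72 to 0.79), so the difference was not seen in tanycytes alone. No choice in control cells could be set beside this one, and a choice tends to favour the library it was made in. In cells reduced to equal detections, proliferating cells had a mean of 12.68 of these regions in deficient and 6.12 in control. Control OPCs had 7.89 and control astrocytes 7.04, and the other control types had fewer than proliferating cells. These regions thus did not single out proliferating cells in the control library. The ratio in alpha1 cells is not read as a gain of proliferating identity.

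Regions of alpha2 cells were more open in deficient alpha1 cells. Those chosen in deficient cells held 2.88 of 1000 detections in deficient and 2.49 in control alpha1 cells, a log2 ratio of 0.21 (0.15 to 0.26). Those chosen in control cells held 3.24 in deficient and 2.77 in control alpha1 cells, a log2 ratio of 0.23 (0.17 to 0.29). The 56 regions chosen in both had 0.20 (0.02 to 0.38). Astrocytes had 0.31 (0.05 to 0.56) in those regions, so the difference was not seen in alpha1 cells alone. OPCs went the other way, at -0.41 (-0.81 to -0.02). Every other type, alpha2 itself among them, had an interval that included 0. In level, alpha2 cells held 0.522 of 1000 detections in these 56 regions in deficient and 0.530 in control. Alpha1 cells held 0.423 in deficient and 0.369 in control, and proliferating cells 0.461 in deficient and 0.567 in control. These regions thus did not single out alpha2 cells, and the ratio in alpha1 cells is not read as a gain of alpha2 identity.

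Regions of astrocytes and of OPCs were less open in deficient alpha1 cells under each choice. For astrocyte regions the log2 ratio was -0.27 for the deficient choice, -0.22 for the control choice and -0.14 (-0.23 to -0.04) for the 76 regions chosen in both, and for OPC regions it was -0.26 for the deficient choice, -0.22 for the control choice and -0.20 (-0.28 to -0.13) for the 177 regions chosen in both. OPC regions chosen in both held 2.18 of 1000 detections in deficient and 2.51 in control alpha1 cells. By log2 ratio, the astrocyte regions chosen in both were lower in alpha2 cells (-0.10) and astrocytes (-0.20), and higher in neurons (0.13). Those OPC regions were lower in alpha2 cells (-0.04) and astrocytes (-0.14), and higher in proliferating cells (0.20), OPCs (0.10) and neurons (0.18). The intervals of the other types included 0. OPCs held 2.77 (deficient) and 2.87 (control) of 1000 detections in the astrocyte regions, and astrocytes 2.89 and 3.32. Beta and ependymal regions did not give 1 answer under all choices. Beta1 regions had -0.29 for the deficient choice and -0.02 for the control choice, and the interval of the control choice included 0 (-0.09 to 0.05). Beta2 regions had -0.17 for the deficient choice and -0.08 (-0.18 to 0.01) for the control choice. Ependymal regions had -0.12 (-0.15 to -0.10) for the deficient choice and 0.02 (-0.02 to 0.05) for the control choice, which gave 278 regions.

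**Figure D3:**
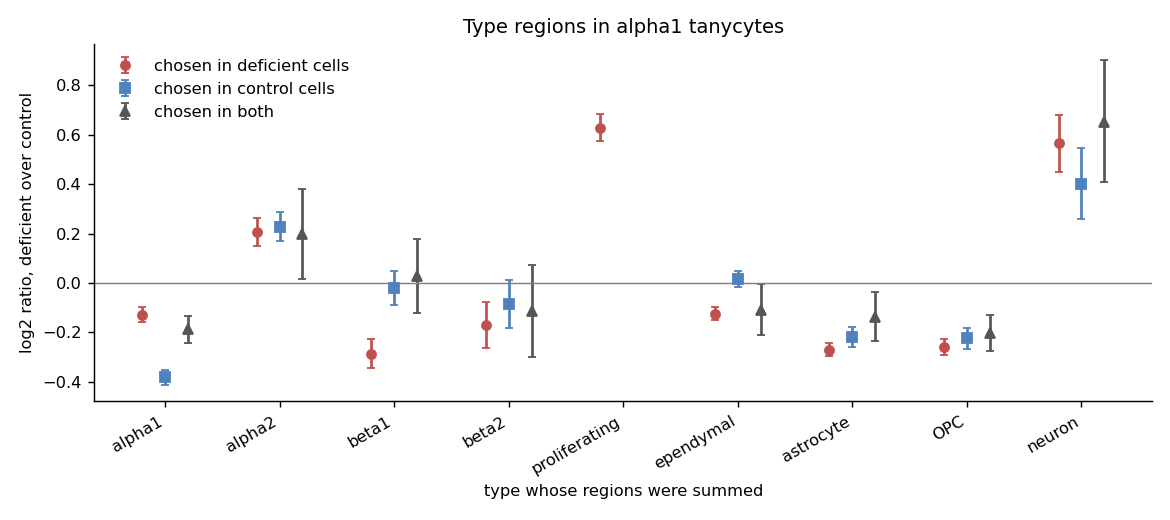
Log2 ratio of the level in Nfia/b/x-deficient over control alpha1 cells (vertical axis, with exact 95% intervals for counting error) for the region sets of each of the 9 types (horizontal axis), chosen in deficient cells, in control cells or in both. Neuron, proliferating and alpha2 regions lie above 0 and alpha1, astrocyte and OPC regions below it under each choice that could be made.

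Single regions were compared in alpha1 cells as log2 ratios of detections per 1000000, with 1 per 1000000 added to each side. Summed over both libraries, 29290 regions had 50 or more detections. Of these, 406 (1.39%) were 2-fold or more higher in deficient alpha1 cells and 1029 (3.51%) were 2-fold or more lower, with a median log2 ratio of -0.003. Here 2-fold is a size, not a test. At a minimum of 100 detections the shares were 0.245% higher and 1.50% lower, and at 200 detections they were 0% higher and 0.180% lower. With no minimum more regions were higher (7.49%) than lower (5.10%), so the direction of the balance rests on the minimum.

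Regions with at least 200 detections were named by their number, the 2 outermost on each side of 5009. They were chosen for their ratio in alpha1 cells, which is therefore a description, while their values in the other types had no part in the choice. Region 13161, the lowest, was open in 71 of 669 deficient alpha1 cells (10.6%, 8.38 to 13.2) and in 158 of 473 control alpha1 cells (33.4%, 29.2 to 37.9), a log2 ratio of -1.47. It was also less often open in all 8 other types, with 8.87% of deficient and 32.1% of control alpha2 cells, 3.87% of deficient and 25.4% of control proliferating cells, and a log2 ratio nearest to 0 in ependymal cells (-0.74). Region 35721 was open in 72 deficient (10.8%) and 140 control (29.6%) alpha1 cells, a log2 ratio of -1.27. The other types were lower in deficient cells there too, apart from astrocytes, with 13.5% of deficient and 12.0% of control cells, and the interval of ependymal cells (-1.58 to 0.17) included 0.

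Region 90151, the highest, was open in 175 deficient (26.2%, 22.9 to 29.7) and 74 control (15.6%, 12.5 to 19.2) alpha1 cells, a log2 ratio of 0.87. It was open in 23.7% of deficient and 9.73% of control alpha2 cells and in 21.4% of deficient and 7.48% of control neurons, where the log2 ratio was 1.59. Region 26148 was open in 165 deficient (24.7%) and 73 control (15.4%) alpha1 cells, a log2 ratio of 0.81. In proliferating tanycytes it was open in 232 of 1033 deficient (22.5%) and 3 of 63 control cells (4.76%). Both regions were higher in all 8 other deficient types, with intervals that included no difference in astrocytes and OPCs.

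**Figure D4:**
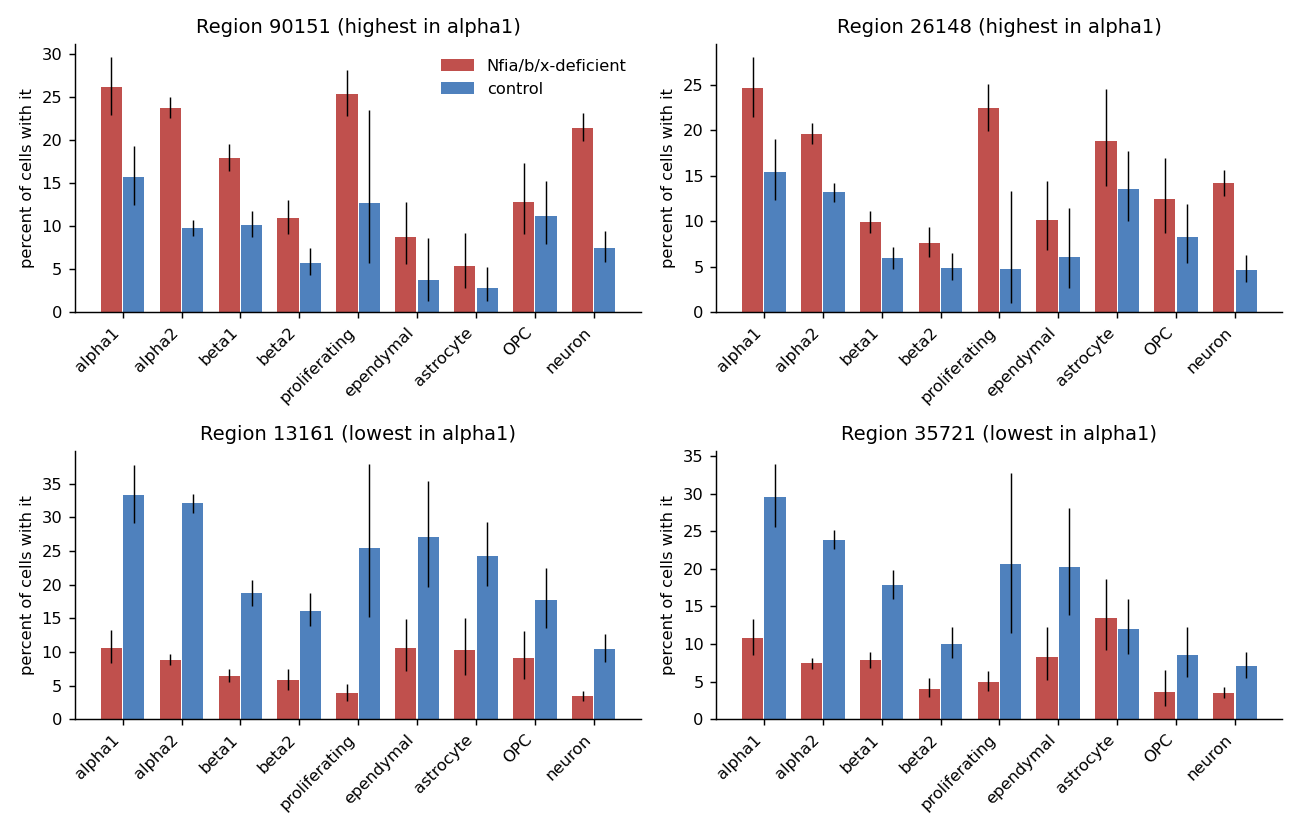
Percent of cells with the region open (vertical axis, with exact Clopper-Pearson 95% intervals) in the 9 types of the Nfia/b/x-deficient and the control library, for the 2 regions with the highest and the 2 with the lowest ratio in alpha1 cells. Region 13161 was open in 10.6% of deficient and 33.4% of control alpha1 cells, and each other type differed in the same direction.

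The regions that differed most in alpha1 cells were also followed as sets. The 500 lowest and the 500 highest ratios were taken in a random 50% of the alpha1 cells and measured in the rest and in every other type. With at least 100 detections required in the choosing cells, 5102 regions could be chosen. The lowest then held 22.1 (21.9 to 22.3) of 1000 detections in deficient and 25.6 (25.3 to 25.9) in control alpha1 cells, a log2 ratio of -0.21, and 365 of the 500 were lower again. The highest held 24.2 in deficient and 22.2 in control alpha1 cells, a log2 ratio of 0.12, and 336 of the 500 were higher again. That minimum keeps the most open regions only. With a minimum of 30 detections, which was tried after these values were seen, 25507 regions could be chosen and the differences were larger. The lowest held 5.48 (5.36 to 5.60) in deficient and 11.8 (11.6 to 12.0) in control alpha1 cells, a log2 ratio of -1.10 (-1.14 to -1.06), and 483 of the 500 were lower again, 264 of them by 2-fold. The highest held 8.82 (8.67 to 8.98) in deficient and 5.96 (5.82 to 6.10) in control alpha1 cells, a log2 ratio of 0.57 (0.52 to 0.61). Of these 500, 406 were higher again, 123 of them by 2-fold. Over all 15533 regions with at least 50 detections in the same unused cells, 51.7% were lower and 1.88% were lower by 2-fold. Those shares were not limited to the regions that could be chosen. They needed 50 detections in the measuring cells, a minimum that the 500 regions of a set did not have to pass there. More regions pass 2-fold at a lower minimum, so the 2-fold counts of the sets are not set against 1.88%. The share higher by 2-fold was not taken in these cells, and was 1.39% of 29290 regions over all alpha1 cells.

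In the sets with the minimum of 100, each other type was lower in the lowest regions (log2 ratios of -0.28 to -0.09) and higher in the highest (0.03 to 0.10), apart from ependymal cells, whose interval included 0 in the highest. In control cells the lowest regions leaned towards alpha1 (median log2 ratio of alpha1 over the mean of the other types 0.19) and the highest away from it (-0.12). With the minimum of 30, the lowest regions had a log2 ratio of -1.24 in alpha2, -0.97 in beta1, -0.95 in beta2 and -1.69 in proliferating tanycytes. They had -1.16 in neurons and -0.72 in OPCs, and were nearest to 0 in ependymal cells (-0.49) and astrocytes (-0.43). The highest regions had 0.46 in alpha2 and 0.56 in proliferating cells, and 0.22 in ependymal cells. Since the sets were chosen in alpha1 cells, the sizes in alpha1 and in the other types were not compared.

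**Figure D5:**
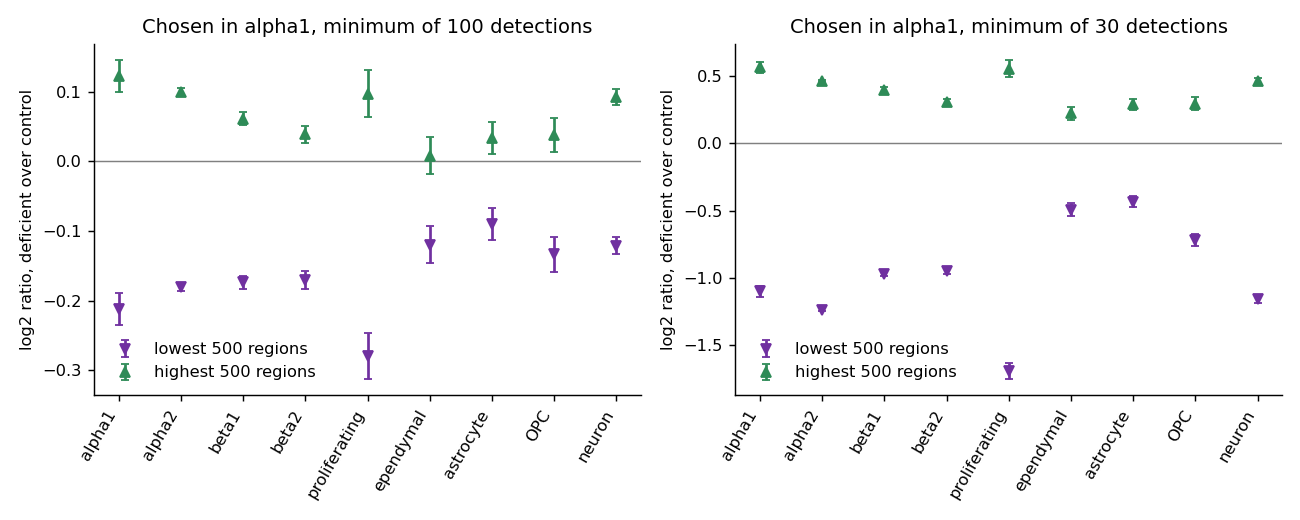
Log2 ratio of the level in Nfia/b/x-deficient over control cells (vertical axis, with exact 95% intervals for counting error) in each type, for the 500 lowest and 500 highest regions chosen in 50% of the alpha1 cells, with at least 100 detections required on the left and at least 30 on the right. The vertical scales differ, and alpha1 cells, measured in the cells not used for the choice, stand at -0.21 and 0.12 on the left and at -1.10 and 0.57 on the right.

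Within a library, alpha1 cells were set against alpha2 cells, the nearest subtype. In the deficient library 2329 of 92272 regions (2.52%) were 2-fold or more higher in alpha1 cells and 2253 (2.44%) were 2-fold or more lower. In the control library 2822 of 91624 regions (3.08%) were higher and 4231 (4.62%) were lower. The balance depended on the settings. With a pseudocount of 5 per 1000000 the deficient library had 442 higher and 18 lower, and the control library 706 higher and 53 lower. In cells thinned to 2000 detections the deficient library had 1294 higher and 2244 lower, and the control library 1528 higher and 2704 lower. Among 85625 regions measured in both libraries, 1059 were higher in both, which is 50.2% of the 2111 deficient and 45.7% of the 2315 control calls. There were 351 regions lower in both, which is 18.9% of the 1853 deficient and 9.03% of the 3887 control calls. Alpha2 cells had 26067852 detections in the deficient and 28371961 in the control library, so a region low in alpha1 cells rests on few of their own detections. Regions called in a random 50% of the cells were also measured in unused cells. The 1561 regions higher in alpha1 in the deficient choice had a log2 ratio of alpha1 over alpha2 of 1.11 in deficient and 1.01 in control. The 2061 of the control choice had 1.01 in deficient and 1.15 in control. Regions lower in alpha1 had ratios nearer to 0, with -0.42 in deficient and -0.44 in control for the 3024 of the deficient choice, and -0.35 in deficient and -0.48 in control for the 4198 of the control choice.

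The outermost regions between the alpha subtypes were chosen in the control library, so their deficient values are separate measurements. Their control values were extremes by that choice. A less extreme deficient value can follow from the choice alone. Region 29626 was open in 18.4% of 669 deficient alpha1 cells, against 2.77% of 4902 deficient alpha2 cells, and in 18.2% of control alpha1 cells, against 3.04% of control alpha2 cells. The log2 ratio of alpha1 over alpha2 was 2.79 in the deficient and 2.77 in the control library. Region 69275 was open in 7.62% of deficient alpha1 cells, against 1.18% of deficient alpha2 cells, and in 17.3% of control alpha1 cells, against 3.27% of control alpha2 cells. Its log2 ratio of alpha1 over alpha2 was 2.51 in the deficient and 2.61 in the control library, while its level was lower in deficient cells of both subtypes. For the 2 regions lowest in alpha1, the interval of that ratio included 0 in the deficient library. Region 91849 was open in 6 deficient alpha1 cells (0.897%), against 84 deficient alpha2 cells (1.71%), and in 1 control alpha1 cell (0.211%), against 247 control alpha2 cells (5.74%). Region 61181 was open in 3 deficient alpha1 cells, against 37 of 4902 deficient alpha2 cells (0.755%), and in 2 control alpha1 cells, against 231 of 4306 control alpha2 cells (5.36%). Between these subtypes, nearly all control detections of regions 91849 and 61181 came from alpha2 cells, so their low control alpha1 counts are tied to the choice. The higher deficient alpha1 counts are therefore not read as a difference between genotypes.

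Against all other cells, chosen in the control library as well, the highest regions were 77357 and 45137. Region 77357 had 22.1 detections per 1000000 in deficient and 40.7 in control alpha1 cells, and at most 3.95 in any other deficient and 3.99 in any other control type. Region 45137 had 32.3 in deficient and 31.2 in control alpha1 cells, and at most 7.58 in any other deficient and 6.23 in any other control type. Both stood out in alpha1 cells of either genotype. The lowest region, 71294, was open in 8 deficient alpha1 cells (1.20%) and in 0 of 473 control alpha1 cells (0 to 0.777). This interval takes no account of the choice of the region. Beta1 cells had region 71294 in 2.49% of deficient and 7.45% of control cells. Region 62448 was open in 15 deficient alpha1 cells (2.24%) and in 1 control alpha1 cell, and beta1 cells had it in 5.68% of deficient and 8.09% of control cells. Regions 71294 and 62448 were picked for a low ratio in control alpha1 cells, so their control alpha1 counts are tied to the choice. Higher deficient alpha1 counts can follow from such a choice alone and are not read as a difference between genotypes.

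Against ependymal cells, which carry motile cilia and border on alpha1 tanycytes, 1472 of 23697 regions (6.21%) were 2-fold or more higher in alpha1 cells of the deficient library and 362 (1.53%) were 2-fold or more lower. In the control library 1068 of 19541 regions (5.47%) were higher and 139 (0.711%) were lower. With no minimum the balance turned, since the deficient library then had 11039 higher and 11770 lower and the control library 11430 higher and 13260 lower. Among 18344 regions measured in both libraries, 847 were called higher in alpha1 in deficient and 785 in control. Of these, 409 were higher in both, 48.3% of the deficient and 52.1% of the control calls. Lower calls there were 180 in deficient and 127 in control. Of these, 31 were lower in both, 17.2% of the deficient and 24.4% of the control calls. There were 265 deficient and 133 control ependymal cells, so only 727 regions reached 200 detections in the control library. Region 90944, the highest of these, had 73.5 detections per 1000000 in deficient alpha1 cells, against 33.1 in deficient ependymal cells, and 85.8 in control alpha1 cells, against 43.7 in control ependymal cells. Region 10402 had 57.8 in deficient alpha1 cells, against 41.1 in deficient ependymal cells, and 80.6 in control alpha1 cells, against 41.6 in control ependymal cells. The lowest, 105444 and 20885, had intervals of the ratio that included no difference in either library.

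Whole profiles were compared at 900000 detections each, as Pearson r of log2 levels across the 30019 regions found in at least 1000 cells. The regions come from the same libraries and are not replicates. Random splits of the alpha1 cells into 2 equal groups gave 0.850 in deficient and 0.865 in control. Deficient alpha1 cells had 0.783 with control alpha1 cells, 0.798 with deficient alpha2 cells and 0.779 with deficient beta1 cells. Control alpha1 cells had 0.799 with control alpha2 cells, 0.778 with control beta1 cells and 0.771 with control ependymal cells. Deficient alpha1 cells had 0.744 with deficient ependymal cells. The profile of deficient proliferating tanycytes had 0.757 with deficient and 0.610 with control alpha1 cells, and that of deficient neurons 0.689 with deficient and 0.567 with control alpha1 cells. Over these regions each alpha1 profile had a slightly higher r with the alpha2 profile of its own library than with the other alpha1 profile. Over regions found in 300 or more cells, the deficient profile had 0.781 with both, and the control profile 0.793 with alpha2 and 0.781 with alpha1.

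The breadth of open chromatin was similar. At 900000 detections alpha1 cells had 91.3% of the 107377 regions at least once in deficient and 89.3% in control, and 7.18% of detections fell in the 1000 most open regions in each genotype. The same measure in alpha2 cells gave 91.8% in deficient and 91.1% in control, and in ependymal cells 93.0% in deficient and 92.3% in control.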

How the data were processed

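Per the labels' protocols, nuclei of sorted cells were run on a droplet ATAC kit and reads went through Cell Ranger ATAC 1.1.0. Seurat, MACS2, Signac 0.2.5, Cell Ranger 3.1 and the build mm10 are listed without roles, per the submitters' processing notes. Region calling, doublets and the naming of types are not described in the labels. The deposited matrix from the authors holds presence or absence of 107377 regions in 22285 cells, so a detection carries no fragment count, and presence saturates in very open regions. Its columns were matched to the annotation line by line. Detections were summed over cells and divided by the total of those cells, with numpy 2.4.6, scipy 1.17.1 and pandas 2.3.3 under Python 3.11.15. Shares have exact Clopper-Pearson, sums exact Poisson and ratios exact conditional binomial 95% intervals, which treat detections as independent. The code for region ratios was checked on simulated counts, which gives no test of the data.

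Type sets held up to 500 regions, each with a log2 ratio over all other cells of 0.5 or more and 20 or more detections in its type. Named regions were the 2 highest and 2 lowest with at least 200 detections. The members, lists and sets were chosen with earlier results of these data known. The nearest profile used 150000 detections per type and was mixed at 0.5 with the mean profile. That version was taken after 4 had been seen on these cells. The alternative on cells nearest to their own type used the version of up to 400000 detections. The sets chosen in both libraries and the minimum of 30 were added after the other values had been seen.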

Additional observations from a re-analysis of the deposited data

Results flagged for a closer look

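Regions of neurons differed in opposite directions in alpha1 tanycytes and in neurons. In alpha1 cells the log2 ratio of deficient over control was 0.565 for regions chosen in deficient cells and 0.402 for regions chosen in control cells. In neurons it was -0.165 for the regions chosen in deficient cells and -0.886 for those chosen in control cells. The difference between the cell types was not tested, since each genotype had 1 library. Neurons were 2520 of 13337 deficient and 882 of 8948 control cells, and how far their number bears on the values in alpha1 cells was not tested.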

How the results depend on the processing

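No paired analysis was possible because each genotype had 1 library. Over 26 results, 95 of 156 alternatives kept the value within its limit (the counting interval, or a fixed factor for percents of regions), 61 did not, and 0 turned a difference whose interval left out 0. The cause was not tested where a value moved. Of all regions measured in alpha1 cells, the percent 2-fold or more higher in deficient cells was 0.245 with a minimum of 100 detections, 0 with 200, 7.49 with none, 0.406 with a pseudocount of 5 and 0.697 in thinned cells. The percent lower was 1.50 with a minimum of 100, 0.180 with 200, 5.10 with none, 1.60 with a pseudocount of 5 and 1.78 in thinned cells. The higher share of these calls was 28.3% as reported, 14.0% with a minimum of 100, 0% with 200 and 59.5% with none. Scaling by the median of ratios moved the median of all regions to -0.07. Past 2-fold between alpha1 and alpha2 were 1.99% in deficient and 3.36% in control with a minimum of 200, and 0.499% in deficient and 0.828% in control with a pseudocount of 5. Between alpha1 and ependymal cells these were 2.91% in deficient and 2.18% in control with a minimum of 100, 0.708% in deficient and 0% in control with 200, 21.2% in deficient and 23.0% in control with none, and 4.28% in deficient and 3.67% in control with a pseudocount of 5.

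The share nearest to the alpha1 profile was 71.7% in deficient and 95.8% in control with profiles of both libraries, 86.7% in deficient and 97.7% in control with up to 400000 detections, and 44.7% in deficient and 55.2% in control with shrunk profiles, and 96.4% in control with a mix of 0.2. The log2 ratio of the alpha1 regions, -0.38 as reported, was -0.42 with median-of-ratios scaling, -0.44 in thinned cells, -0.41 without the deepest 5% of cells, -0.32 in cells nearest to their own type, -0.19 for regions chosen in both libraries and -0.13 for the deficient choice. The deficient choice gave -0.29 for beta1, -0.12 for ependymal, -0.27 for astrocyte and 0.57 for neuron regions, and the choice in both gave -0.11 for ependymal, -0.14 for astrocyte and 0.65 for neuron regions. Proliferating regions had 0.74 with up to 200 regions and 0.57 with median-of-ratios scaling. Ependymal regions had -0.038 with the choice in the remaining cells and -0.025 with that scaling, and OPC regions -0.27 in thinned cells. The lowest regions had -0.37 with up to 200 regions, -0.25 with that scaling and -1.10 with a minimum of 30. The highest had 0.096 with the choice in the remaining cells, 0.16 with up to 200 regions, 0.079 with that scaling and 0.57 with a minimum of 30. By Spearman rho the likeness was 0.810 between the alpha1 profiles, 0.819 for deficient alpha1 with alpha2 and 0.824 for control alpha1 with alpha2, and over regions found in 300 or more cells Pearson r was 0.781 between the alpha1 profiles, 0.781 for deficient alpha1 with alpha2 and 0.793 for control alpha1 with alpha2.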
